A study of Caenorhabditis elegans with 2 samples.

Results

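The col genes are the numbered collagen family of the nematode Caenorhabditis elegans. They were taken as every protein-coding gene whose name is col followed by a number in the Ensembl annotation of assembly WBcel235, which gave 156 genes of 19985. CEH-22, a transcription factor with an NK-2 type homeodomain, is known for activating muscle genes in the pharynx. ChIP-seq, the sequencing of DNA that co-precipitates with a protein from sheared chromatin, was done for it on late embryos of strain OP389, whole animals with males and females pooled. The strain genotype was given as unc-119(tm4063) III; wgIs389, and it stably expressed CEH-22 with GFP and FLAG at the C-terminus. Both of the 2 biological replicates carried the same alleles and formed 1 group, so there was no second condition and no contrast to test. The promoter that drives the transgene was not stated in the labels, nor was it stated whether the antibody recognised CEH-22 itself or its tag. Whole embryos hold few pharyngeal cells among many others, and these peak lists carry no expression marker by which the tissue could be checked.

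Cuticle collagens are the main structural proteins of the nematode exoskeleton. The epidermis makes the first cuticle at the end of embryogenesis and a new one at each moult. Most of the chain is a repeat of 3 residues in which glycine comes first, with proline or hydroxyproline common in the other places, and conserved cysteines flank the repeats. The family name also covers a few collagens of other kinds, such as col-99, which encodes a transmembrane collagen. Its sequence bears out the name for the set as a whole: the median col gene had 20.8% glycine codons over its whole coding sequence, against a median of 4.86% over all protein-coding genes. The genes were short, with a median span of 1220 bp (521 to 9946 bp) against 2026 bp for all, and lay on chromosomes IV (41 genes), V (31), X (27), II (24), I (21) and III (12).

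A region was assigned to a gene when its summit lay between 1000 bp upstream of the gene's 5' end and its 3' end, on build ce11, which is the same assembly. There were 30000 regions in the relaxed list of each replicate and 19644 in the relaxed list of the pooled data, and these lists contain background by design. A short thresholded list, of peaks that passed a test of reproducibility between replicates, was made of the strongest pooled regions, down to a value of 32.2. Strength is the authors' signal value of each region, on a scale that was not stated, and rank 1 is the largest value of a list. The number of reads behind a region is unknown. Intervals on shares are 95% Wilson intervals and cover counting error over genes or regions only.

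The strongest col region and 2 of the other strong ones lay at tRNA genes inside introns, and those genes are shown first because the summits fall in or beside them. The tRNA genes are in capitals, each read on the strand of the tRNA gene with 15 bases on each side, from the RefSeq genome of WBcel235. They are the tRNA-His gene W09G10.t1 in col-72 at chrII:3521472-3521573 (minus strand), the tRNA-Arg gene F29C4.t1 in col-99 at chrIV:143967-144069 (plus strand) and the tRNA-Ile gene T21B4.t1 in col-85 at chrII:12494726-12494829 (plus strand).
col-72 W09G10.t1: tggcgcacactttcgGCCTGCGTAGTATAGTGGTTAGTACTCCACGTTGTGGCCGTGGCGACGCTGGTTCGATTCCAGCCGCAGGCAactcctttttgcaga
col-99 F29C4.t1: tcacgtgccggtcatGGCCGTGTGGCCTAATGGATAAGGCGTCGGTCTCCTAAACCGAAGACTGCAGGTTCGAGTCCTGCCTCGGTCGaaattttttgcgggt
col-85 T21B4.t1: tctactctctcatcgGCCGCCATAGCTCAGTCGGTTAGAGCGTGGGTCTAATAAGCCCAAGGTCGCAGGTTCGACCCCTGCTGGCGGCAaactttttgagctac

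Coding exons held the largest number of col regions, many of them over glycine repeats. The 121 bases centred on the summit are shown for col-97, the strongest col region away from a tRNA gene, and for col-141 and col-124, the next strongest in coding exons. In-frame glycine codons (GGN) are in capitals, including one that the edge of the stretch breaks off. The stretches lie at chrIII:12993299-12993419 (col-97, minus strand), chrIV:10216952-10217072 (col-124, plus strand) and chrV:6830058-6830178 (col-141, plus strand), each read on the strand of its gene.
col-97: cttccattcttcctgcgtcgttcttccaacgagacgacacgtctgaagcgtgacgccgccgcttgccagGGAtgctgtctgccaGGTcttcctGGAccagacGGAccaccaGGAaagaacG
col-124: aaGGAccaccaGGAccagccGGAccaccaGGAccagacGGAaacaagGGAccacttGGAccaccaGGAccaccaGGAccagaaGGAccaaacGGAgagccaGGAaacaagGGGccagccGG
col-141: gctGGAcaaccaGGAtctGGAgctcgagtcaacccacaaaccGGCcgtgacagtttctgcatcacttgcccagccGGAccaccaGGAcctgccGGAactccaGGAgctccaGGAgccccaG

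Of the 156 col genes, 1 held a thresholded peak in its window (0.641%, interval 0.113 to 3.54%), against 1.14% of all protein-coding genes. In the pooled list 74 col genes held a region (47.4%, 39.8 to 55.2%), against 50.7% of all. The replicate 1 list reached 89 col genes (57.1%, 49.2 to 64.6%) against 64.3% of all, and the replicate 2 list reached 100 (64.1%, 56.3 to 71.2%) against 65.3%. A summit in each of the replicate lists was present for 64 col genes (41.0%, 33.6 to 48.9%) against 48.4%. In none of these lists was the col share above the share of all genes, and each interval held the share of all genes, just inside its upper bound for the replicate 1 list and for both lists together. In all 3 relaxed lists there were 51 col genes with a region, and in none of them 31 (19.9%, against 18.3% of all genes).

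Taking fewer and stronger pooled regions kept the col genes near the background. Among the 1000 strongest pooled regions there were summits in 3 col genes, col-72, col-97 and col-99 (1.92%, 0.656 to 5.5%), against 3.84% of all genes. Among the 5000 strongest there were summits in 28 (17.9%, 12.7 to 24.7%), against 17.7%. Requiring a region among the 1000 strongest of both replicates left col-72 alone (0.641%, against 1.46%). From the 2000 strongest (10 col genes, 6.41% against 7.52%) to the 15000 strongest (66 col genes, 42.3% against 42.5%) the col share stayed close to that of all genes. The median rank of a gene's best region was 6863.5 for the col genes with one and 7606.5 for all genes with one.

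**Figure D1:**
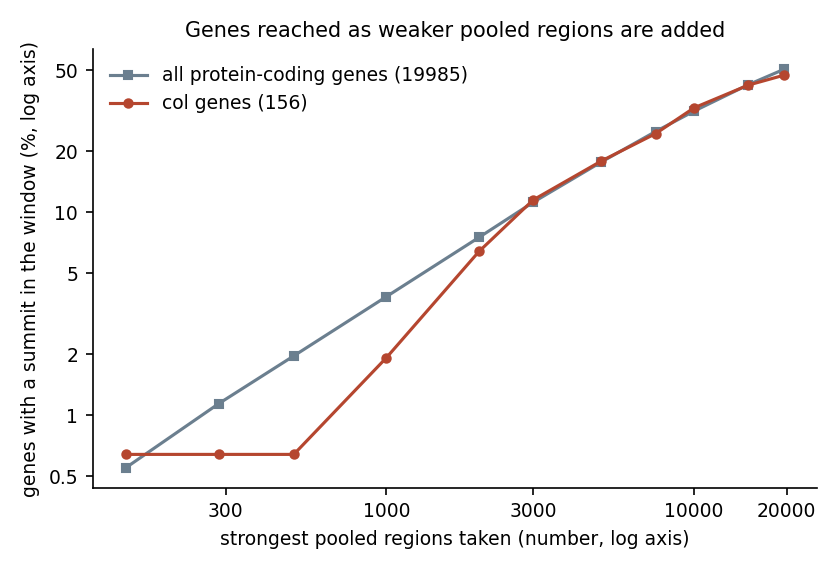
Share of genes with a summit in their window (%, log axis) against the number of strongest pooled regions taken (log axis), for 156 col genes and 19985 protein-coding genes. Up to 500 regions the col line rests on 1 gene, at 1000 it is at 1.92% against 3.84%, and from 3000 regions on the lines lie close together.

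The gene at the top was col-72 (chrII:3520703-3524197, minus strand). Its region had a signal value of 43.6 in the pooled list (rank 118), 16.7 in replicate 1 (rank 211) and 26.0 in replicate 2 (rank 138). The summit lay 2663 bp downstream of the col-72 5' end, in a long intron and inside W09G10.t1 itself, and the 5' end of W09G10.9 was nearer, at 266 bp. It ranked high in both replicates, and it was far from the col-72 promoter. In col-99 (chrIV:137974-147919, minus strand), the longest col gene, the strongest region had 23.8 in the pooled list (rank 721), 9.52 in replicate 1 (rank 1087) and 19.6 in replicate 2 (rank 432). Its summit lay in an intron, 11 bp from F29C4.t1. The col-85 region had 18.7 in the pooled list (rank 1867), 10.2 in replicate 1 (rank 897) and 7.79 in replicate 2 (rank 17800), with its summit 30 bp from T21B4.t1. The replicates thus ranked col-85 far apart, and col-85, like all col genes below that are not among the 3 in the 1000 strongest or the textbook members, was named after its values were seen.

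In all, 5 tRNA genes overlapped a col window, and 4 of them had a pooled summit within 200 bp, against 238 of 634 tRNA genes of the genome (37.5%). The tRNA-Pro gene H06A10.t1 at the edge of the col-185 window had a pooled region of 25.7 (rank 563) whose summit lay 76 bp from it and just outside the window. The tRNA-Arg gene F33D11.t2 in the col-54 window had none. Read the other way, 4 of the 107 col regions had a tRNA gene within 200 bp (3.74%, 1.46 to 9.22%), of which 2 were at F29C4.t1, against 1.19% of all pooled regions. No col region lay within 200 bp of a snoRNA, snRNA or rRNA gene (0 of 107, upper bound 3.47%), against 0.799% of all pooled regions. Without summits near tRNA genes, the count of col genes with a thresholded peak was 0 and col-97 was the remaining one among the 1000 strongest. The tRNA genes' part in these signals was not tested.

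**Figure D2:**
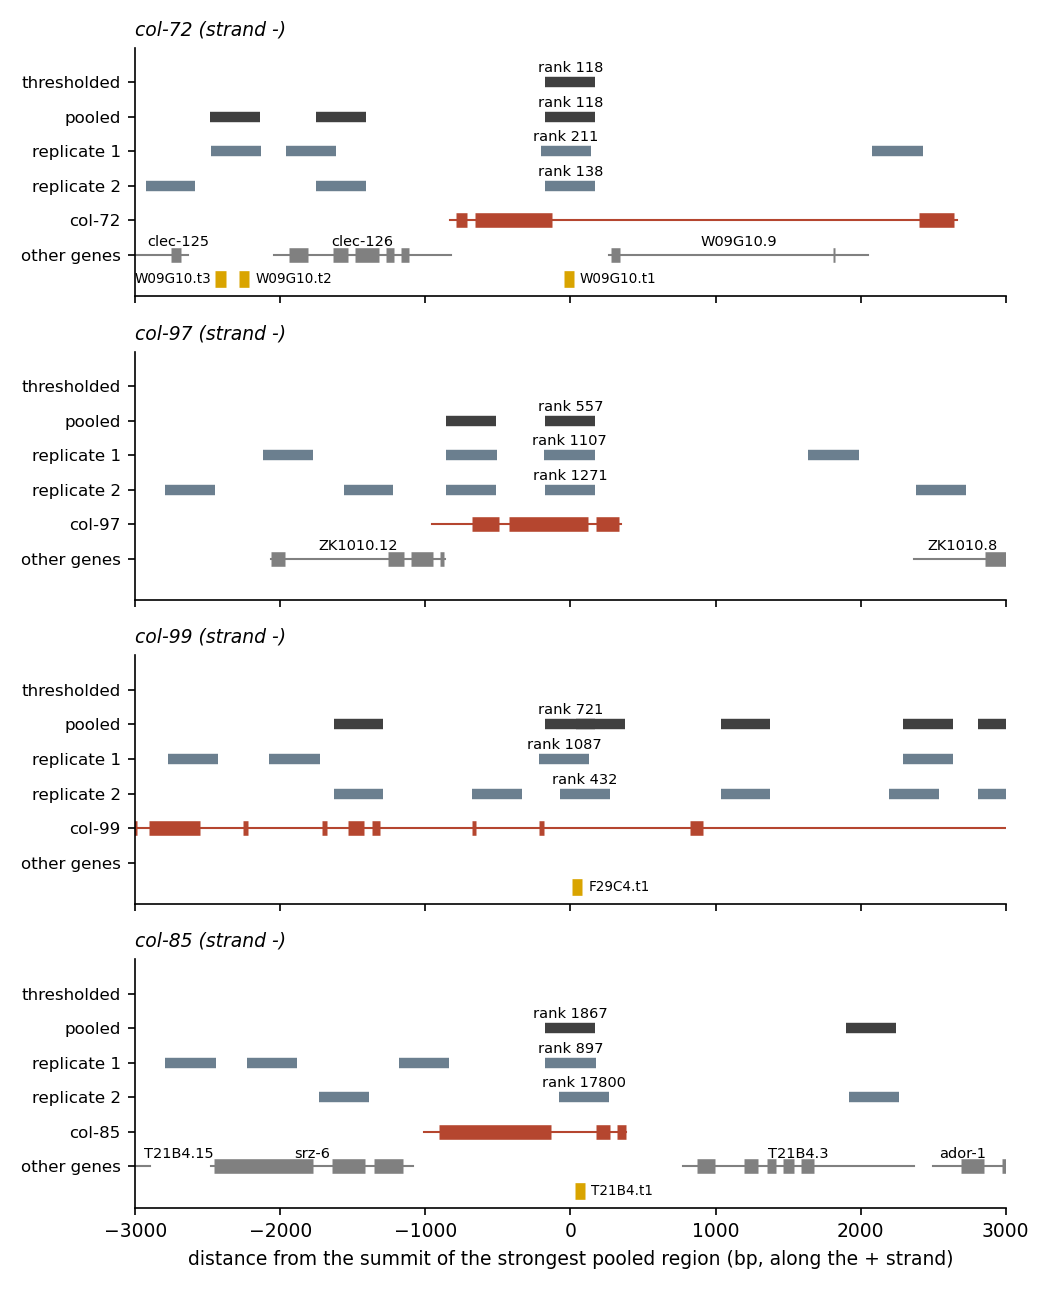
Regions of the thresholded, pooled and replicate lists around 4 col genes, by distance in bp along the plus strand from the summit of the gene's strongest pooled region; thick blocks on gene lines are coding exons and yellow blocks are tRNA genes. The summits in col-72 (rank 118), col-99 (rank 721) and col-85 (rank 1867) lie at a tRNA gene in an intron, and that of col-97 (rank 557) lies over coding sequence.

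The strongest region away from a tRNA gene belonged to col-97 (chrIII:12992405-12993707, minus strand). It had 25.7 in the pooled list (rank 557), 9.46 in replicate 1 (rank 1107) and 15.7 in replicate 2 (rank 1271), with the summit in a coding exon 348 bp downstream of the 5' end. The replicates placed it at similar ranks. A second col-97 region, in an untranslated exon, had 18 (rank 2196). The col-97 window held 10 glycine codons of 67 (14.9%), and the printed stretch begins ahead of the repeat. The windows of col-141 (20.3, rank 1303) and col-124 (19.7, rank 1500) each held 28.4% glycine codons. Both ranked higher in replicate 2 than in replicate 1. The col-141 region had 17.5 (rank 726) in replicate 2 and no counterpart in replicate 1. The col-124 region had 15.7 (rank 1243) in replicate 2 and 5.07 (rank 7844) in replicate 1.

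Over the family, the 107 pooled regions lay in coding exons for 55 (51.4%, 42.0 to 60.7%), against 33.5% of the pairs of a region and a gene over all protein-coding genes. Introns held 19 (17.8%, 11.7 to 26.1%) against 35.4%, upstream sequence 30 (28.0%, 20.4 to 37.2%) against 25.3%, and untranslated exons 3 (2.8%) against 5.8%. Coding exons were also the largest class in each replicate alone, with 74 of 145 in replicate 1 (51.0%, against 33.0%) and 70 of 148 in replicate 2 (47.3%, against 34.1%). Coding exons made up 64.6% of the length of the col genes, against 38.3% over all genes. Of the windows, which add the 1000 bp upstream, coding exons made up 38.8% against 29.3%, and upstream sequence 39.9% against 23.7%. Per kb of sequence, col coding exons held 0.363 regions against 0.243 for all genes, and col upstream sequence held 0.192 against 0.228. The col values were thus above those of all genes in coding exons and below them upstream.

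Promoters were counted apart. Between 1000 bp upstream and 200 bp downstream of the 5' end, 32 col genes held a pooled summit (20.5%, 14.9 to 27.5%), against 24.6% of all protein-coding genes. Between 400 and 200 bp upstream of the 5' end there were 6.41 regions per 100 col genes, against 5.05 per 100 genes of all. In the 200 bp just upstream of it there were 5.13 regions per 100 col genes, against 5.51 per 100 genes of all. In the 200 bp after it there were 3.21 against 4.57. From 200 to 400 bp downstream there were 8.33 against 4.29, and from 400 to 600 bp 7.69 against 4.17. From 600 to 800 bp there were 4.49 against 3.46, and from 800 to 1000 bp 7.69 against 3.44. The col values were thus above those of all genes in each bin from 200 to 1000 bp inside the gene and in 1 upstream bin. They were below them in the bins on either side of the start and in those from 1000 to 400 bp upstream. The 4 bins from 200 to 1000 bp rest on 13, 12, 7 and 12 col regions, without intervals. Each rate is over every gene of its set, including genes too short to reach the bin. Another protein-coding 5' end was nearer to the summit for 11 of the 107 col regions (10.3%, against 29.7%). Some of the other summits also lay inside another protein-coding gene, such as those of col-124 (in qns-1), col-19 (in ZK1193.2) and col-94 (in dhc-4). That overlap was not counted over all genes. The median pooled value was 13.6 for col regions in coding exons (12 for all genes), 11.0 upstream (12.3) and 14.5 in introns (12).

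The coding regions of the family stood over sequence of high GC content. Within 100 bp of the summit, the median GC content of col coding exon regions was 56.2%, against 41.3% for coding exon regions of all genes. It was 39.6% against 38.8% upstream and 38.8% in both in introns. The col coding sequences themselves had a median of 55.1% GC, against 42.5%, so the regions had about the composition of the exons around them. Glycine codons made up a median of 27.5% of the codons in the 55 col windows, from 0% in a col-163 window to 40.6%, against 4.62% over 5941 windows of all genes. Col coding sequence is itself rich in glycine codons, with a median of 20.8% over a whole coding sequence, and 27.5% is nearer to that value. GC content and the glycine repeat come together in these exons and with the regions in them, and their part in the signal was not tested.

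**Figure D3:**
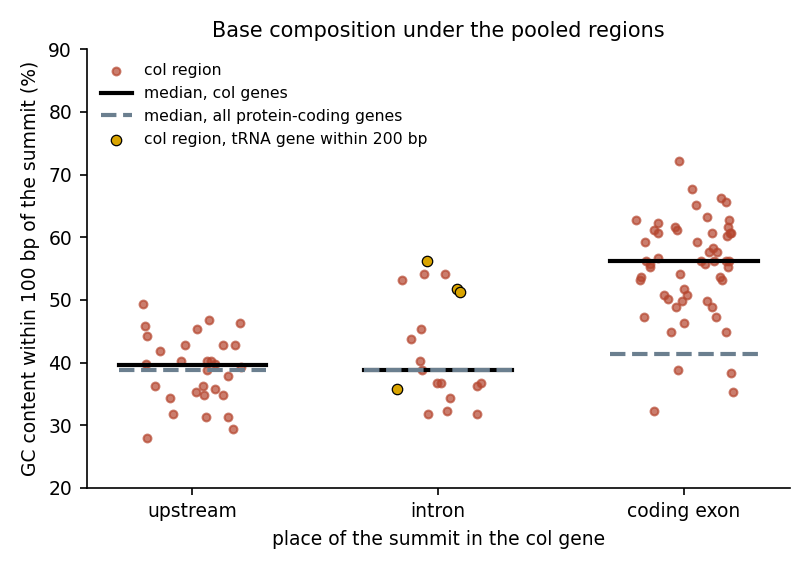
GC content (%) within 100 bp of the summit for each pooled region of the col genes, by place in the gene; solid lines are col medians, dashed lines are medians over all protein-coding genes, and yellow points have a tRNA gene within 200 bp. Col and all-gene medians are close upstream (39.6% and 38.8%) and in introns, and apart in coding exons (56.2% and 41.3%).

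Some col genes have neighbours or relatives of very similar sequence, and repeated coding sequence was set beside the presence of a region. For each gene, the share of its coding 31-mers (all stretches of 31 bases) found elsewhere in the genome was counted. It was over 20% for 33 of the 156 col genes (21.2%), against 7.34% of all protein-coding genes. Of these 33 genes, 4 held a pooled region (12.1%, 4.82 to 27.3%), and of the other 123 col genes 70 did (56.9%, 48.1 to 65.3%). Over all protein-coding genes the shares were 17.7% above the limit and 53.3% at or below it, and the difference between the splits was not tested. Among genes with little repeated sequence the col share was slightly above the background and over the whole family slightly below it, and in both cases its interval held the background share. The limit was set after the values were seen, with col-145 (27.0%) just above it and col-143 (18.4%) just below.

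The pooled regions of these 33 repeated genes lay outside their coding sequence. The 4 genes were col-17, col-94, col-145 and col-161, and the strongest summit of each lay upstream, at 289, 492, 155 and 48 bp from the 5' end. In the replicate 1 list 13 of the 33 genes held a region (39.4%, 24.7 to 56.3%) and 61.8% of the other col genes (53.0 to 69.9%), so these intervals overlapped, against 29.7% and 67.1% over all genes. In the replicate 2 list 9 of the 33 held a region (27.3%, 15.1 to 44.2%) and 74.0% of the other col genes (65.6 to 80.9%), against 28.0% and 68.3% over all genes. In the replicate lists, some of the strongest summits of these 33 genes lay inside the gene and others upstream of it. Those inside included col-179 (327 bp downstream of the 5' end, replicate 1) and col-147 (922 bp, replicate 2). Those upstream included col-169 (replicate 1) and col-170 (replicate 2). Of the 33 genes, 19 held a region in some relaxed list and 14 were among the 31 col genes without one in any. They included the neighbours col-12 (93.2% repeated) and col-13 (92.6%), and col-7 (91.7%) with its neighbour col-62 (91.4%). Of the 50 col genes with another col gene within 5000 bp, 15 held a pooled region, and of the other 106, 59 did, against 50.7% of all protein-coding genes. Within that group of 50 the repeated genes had 3 of 28 (10.7%) and the rest 12 of 22 (54.5%). How reads that match several places were treated is not given in the sources used here. A lack of pooled regions over the copied sequence therefore cannot be told apart from reads that were not placed there.

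**Figure D4:**
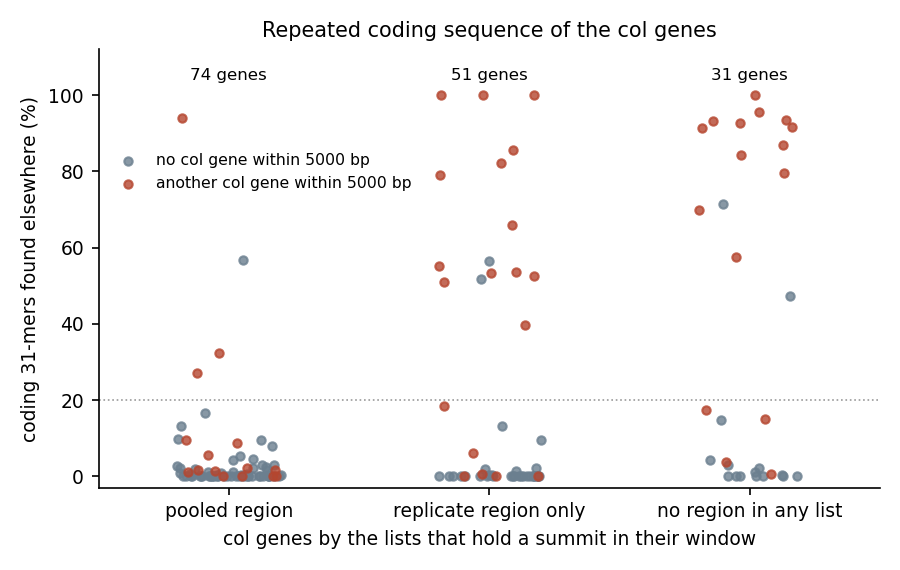
Share of each col gene's coding 31-mers found elsewhere in the genome (%), for the 74 genes with a pooled region, the 51 with a region in a replicate list only and the 31 with none; colour marks genes with another col gene within 5000 bp, and the dotted line is the limit of 20%. Above the line there are 4 genes in the first column, 15 in the second and 14 in the last.

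Chromosomes differed in how many of their col genes held a pooled region, with few counts on each. Chromosome V had the lowest share, 8 of 31 (25.8%, 13.7 to 43.2%, against 41.5% of all its genes). Chromosome III had 9 of 12 (75.0%, 46.8 to 91.1%, against 57.0%) and chromosome II 16 of 24 (66.7%, 46.7 to 82.0%, against 52.7%). The shares were 10 of 21 on chromosome I (47.6%, 28.3 to 67.6%, against 57.3%), 19 of 41 on IV (46.3%, 32.1 to 61.3%, against 47.7%) and 12 of 27 on X (44.4%, 27.6 to 62.7%, against 55.3%). On every chromosome the interval held the share of all its genes. Many col genes with repeated coding sequence, col-12 and col-13 among them, lie on chromosome V, and the splits by chromosome and by repeated sequence were not separated.

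Gene length was taken into account as well. Since a col window was shorter than the usual window (median 2220 bp against 3026 bp), genes of 1000 to 2000 bp were compared, a range set after the data were seen. There, 58 of 111 col genes held a pooled region (52.3%, 43.0 to 61.3%), against 40.8% of 6212 genes. Per kb of window, the col genes held 0.274 pooled regions and all genes 0.213. The comparison with all genes thus turned from slightly below to above when genes of like length were taken. Most col genes with a region had 1 (50 genes) or 2 (21 genes), col-71 had 3, col-163 had 4 and col-99 had 8, and no region was shared by a pair of col genes.

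The replicates shared some of the col regions. Of the 107, 52 had a replicate 1 summit within 200 bp (48.6%, against 50.3% of all pooled regions), 96 had a replicate 2 summit (89.7%, against 81.9%) and 43 had both (40.2%, 31.4 to 49.7%, against 35.4%). The pooled list thus followed replicate 2 more than replicate 1, in the family as in the whole list. Over the 43 regions Spearman's rho of the replicate values was 0.0865, and over the 6963 such regions of all kinds 0.198; the points share 2 libraries and were all chosen from the pooled list. Coding exon regions were seen in both replicates for 21 of 55 (38.2%, against 31.5% over all genes), upstream regions for 10 of 30 (33.3%, against 41.2%) and intron regions for 11 of 19 (57.9%, against 34.5%). The col regions high in both replicates were those of col-72, col-99 and col-97.

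**Figure D5:**
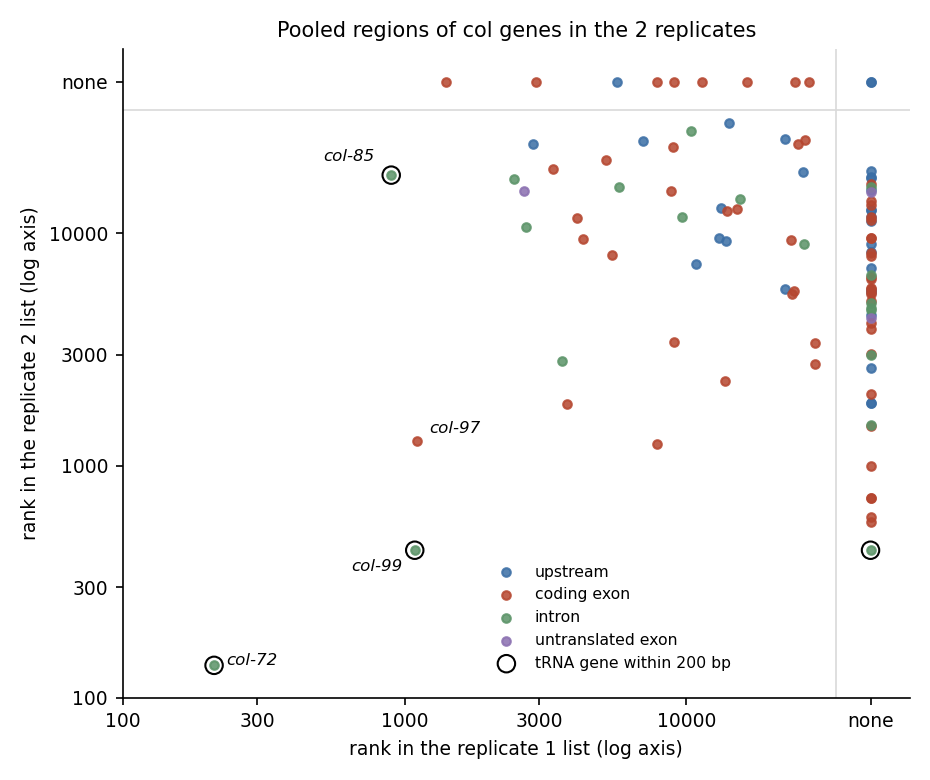
Rank in the replicate 1 list against rank in the replicate 2 list (log axes) for the 107 pooled regions of the col genes, coloured by place; "none" marks regions without a summit within 200 bp in that list, and circles mark a tRNA gene within 200 bp. The labelled region of col-72 lies nearest the origin (ranks 211 and 138), followed by col-99 and col-97, and many coding exon regions are at "none" for replicate 1. A circle at "none" is the second col-99 summit beside the same tRNA gene, which matched the replicate 2 region of the first.

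Apart from col-99, described above, the textbook members of the family had weak regions or none. col-19, the collagen most used to mark the adult cuticle, had a pooled region of 14.1 (rank 5760) in its coding exon, 11.3 (rank 5580) in replicate 2 and none in replicate 1. col-17 had 12.2 (rank 9529) at 289 bp upstream in the pooled list and 8.26 (rank 15351) in replicate 2, while its replicate 1 region of 4.5 (rank 10698) lay farther upstream. col-34 had 10.9 (rank 13214) at 757 bp upstream. Ranks this low lie deep in lists that contain background. col-10 had no pooled region, and its replicate regions (rank 23384 in replicate 1 and rank 16010 in replicate 2) lay about 1 kb apart on different sides of the 5' end. col-7, col-12 and col-13 had no region in any list, and these 3 and col-10 (82.3%) were among the genes with repeated coding sequence.

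Beyond the window, the thresholded peak nearest to another col gene lay 2719 bp upstream of col-177, at chrX:11004397-11004740 (value 32.5, rank 276). The next were 5931 bp from col-9, where the 5' end of unc-84 was nearer at 671 bp, and 6604 bp from col-38, where that of iff-2 was nearer at 64 bp. The adult collagen gene col-19 was 11369 bp from a peak. No col gene other than col-72 therefore had a thresholded peak within its span or the 2 kb before it.

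The lists of related genes also had no thresholded peak in a window. Of 20 cuticle collagens with other names, such as dpy-7, rol-6 and sqt-3, 15 held a pooled region (75.0%), and ram-2 was the one in the 1000 strongest (22.7, rank 865, in a coding exon). Its replicate ranks were 15612 and 449. Of 13 genes for collagen modification and cross-linking, 11 did (84.6%). phy-3, a prolyl 4-hydroxylase gene, had 26.8 (rank 481) in an intron, with replicate ranks of 11965 and 261. That summit lay 5393 bp downstream of the phy-3 5' end, and the 5' end of clec-40 was nearer. mlt-7, a peroxidase gene needed at the moult, had 22.0 (rank 976) at 194 bp upstream, with replicate ranks of 26803 and 684. All 5 genes of a list of basement membrane proteins and non-cuticle collagens held one, and the strongest were those of mig-6 and let-2. mig-6, which encodes papilin and not a collagen, had 23.9 (rank 711) at 643 bp upstream, with replicate ranks of 24635 and 672. let-2, a type IV collagen gene, had 22.6 (rank 893) in a coding exon, with replicate ranks of 7210 and 564. Of 12 other cuticle and apical matrix genes, 10 did (83.3%). Each of these 5 strong regions ranked far higher in replicate 2 than in replicate 1. The background for these shares is 50.7%, and many of the genes are longer than the col genes, so the shares are not comparable gene for gene.

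The letters of the known CEH-22 sites were then sought under the col regions. The NK-2 site was searched as TCAAGTG or TTAAGTG on both strands within 100 bp of the summit; the 2 do not overlap each other. A site was present in 9 of the 107 col regions (8.41%, 4.49 to 15.2%), against 6.06% of all pooled regions. TCAAGTG was in 5 (4.67%, against 4.44%) and TTAAGTG in 4 (3.74%, against 1.7%). The strongest col regions, those of col-72, col-97 and col-99, held none. The regions with a site ranked from 4777 (col-71) to 17638 (col-99) in the pooled list.

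The sites closest to a summit and those in a shared frame of the coding sequence are shown with 10 bases on each side, site in capitals. They lie at chrII:3500873-3500899 (col-71, plus strand, intron, 8 bp from the summit), chrII:13096619-13096645 (col-86, minus strand, coding exon, 3 bp), chrX:9234099-9234125 (col-175, minus strand, coding exon, 37 bp) and chrIV:604890-604916 (col-102, plus strand, coding exon, 34 bp).
col-71: attttgaccaTTAAGTGggcggagctt
col-86: atcacactctTCAAGTGggtgtatcac
col-175: ggtggatgcaTCAAGTGtccagctgga
col-102: ggagcttgcaTCAAGTGcccagccgga

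The printed col-175 and col-102 sites fall in the same reading frame, over the codons atc, aag and tgt in col-175 and atc, aag and tgc in col-102. On the coding strand, TCAAGTG occurred in 17 of the 156 col coding sequences (10.9%), against 12.1% of all protein-coding genes. In 15 of these 17 sites (88.2%) it began at the second base of a codon, against 21.0% of 2859 sites over all genes. Genes with a site in that frame were 9.62% of the col genes and 2.79% of all genes, while the opposite strand held TCAAGTG in 3.85% of col coding sequences and 8.61% of all. The col-86 site was not in that frame. Where col coding sequences held the letters, they were thus mostly in 1 reading frame. A match of letters is a description and not a binding site.

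Repeated sequence under the regions was checked in the same way. At least 1 repeated 31-mer lay within 100 bp of the summit in 23 of the 107 col regions (21.5%), against 8.94% of all pooled regions. In none of the 107 was more than 50% of the window repeated, against 0.585% of all. The col-72 window had 35.7% of its 31-mers repeated. For the strongest region of each gene it was 30.4% in col-102, 29.8% in col-124, 27.5% in col-99 and 25.7% in col-85. The windows of the strongest col-97 region and of col-141 had none.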

How the data were processed

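Peak lists of CEH-22 ChIP-seq were available for 2 biological replicates of 1 group. The authors made a relaxed list for each replicate against a control and 1 for the pooled replicates against a control, and derived the thresholded list from these by IDR (irreproducible discovery rate), per the deposited listing. The signal value is a score that the authors deposited per region, on a scale not stated, and was used only to rank and describe regions. Neither aligner nor peak caller is named in the sources used here. Controls, signal tracks and the ce10 lists were not analysed here. The thresholded list equalled the strongest pooled regions, down to a value of 32.2. Coordinates are 1-based on ce11 (WBcel235), with genes from Ensembl release 115 and sequence and tRNA products from RefSeq. Summits were assigned to every gene whose window held them. A region was seen in a replicate when a summit there lay within 200 bp.

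Shares were compared with the same shares over all protein-coding genes, with no test, since there was 1 group. Assignment was tested on simulated regions. Work was done in Python 3.11.15 with pandas 2.3.3, numpy 2.4.6 and scipy 1.17.1. Members and gene lists were chosen with earlier results of these data known. Named genes were those with a thresholded peak or a region among the 1000 strongest, and col-7, col-10, col-12, col-13, col-17, col-19, col-34 and col-99; any other gene was named once its values had been seen. Alternative windows, list sizes, distances and single replicates were tried.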

Additional observations from a re-analysis of the deposited data

How the results depend on the processing

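Of 32 alternative settings over 5 results, 21 gave values within their limits (1.5 times for a count, the Wilson interval for a share) and 11 did not. The 1 col gene with a thresholded peak (228 of all genes) became 3 (768 of all) among the 1000 strongest pooled regions. It became 0 within −1000 to +200 bp of the 5' end (149 of all) and without summits nearer another gene (158 of all). Without summits within 200 bp of a tRNA gene it was also 0 (216 of all). With as many of the strongest regions of either replicate alone the count was 1. The share of col genes with a pooled region (47.4%, against 50.7% of all genes) was 20.5% within −1000 to +200 bp (against 24.6%). It was 32.7% with the 10000 strongest regions (against 31.5%) and 17.9% with the 5000 strongest (against 17.7%). In the list of a single replicate it was 57.1% for replicate 1 (against 64.3%) and 64.1% for replicate 2 (against 65.3%). Over genes with at most 20% repeated coding sequence it was 56.9% (against 53.3%). The last setting, the length range of 1000 to 2000 bp (52.3%, against 40.8%) and the 1000 strongest regions without tRNA neighbours (1 gene, 723 of all) were chosen after seeing the data. The 43 regions seen in both replicates became 12 of 35 within −1000 to +200 bp. The shorter windows and the lists of another length change how much is counted by construction; for the other settings the cause was not tested. The share upstream of the 5' end ranged from 21.4% (15.9% over all genes, with a reach of 500 bp) to 30.3% (25.6%, without replicate 2). The share with an NK-2 site ranged from 6.8% (5.2% of all regions, without replicate 1) to 10.3% (8.57%, 150 bp to each side), and at 50 bp it was 7.48% against 3.28%. No paired analysis was possible because there was 1 group. Read depth is unknown, so a region that is missing from a list may not have been detectable.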
